A study of Mus musculus with 2 samples.

Results

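The genes described here make cholesterol, sense its level, take it up, and store, move or export it. Of 34 listed genes, 32 had at least 1 probe set (a group of array probes for 1 transcript) annotated with that gene symbol alone, out of 18193 such genes on the array. Acat2 and Soat1 had none and were not analysed here. Where a gene had several, the brightest by mean log2 signal stood for it. All 32 lay above the floor for a measurable signal, which was the median signal of each array, on both arrays. Their 75 probe sets included 69 that reached the floor on at least 1 array.

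The samples were ovaries of immature mice on the C57BL/6 background, aged 24 to 28 days, either wild type or lacking the progesterone receptor (PR knockout, also labelled PRKO). All mice were primed with 5 IU of PMSG, a gonadotropin that drives follicle growth, and 48 h later received 5 IU of hCG, which stands in for the luteinizing hormone surge. Ovaries were taken at 11 h, which the labels' protocols place after the gonadotropin treatment, close to ovulation. Each genotype has 1 array, an Affymetrix GeneChip, and the sources used here do not give how many mice contributed to each RNA. The labels do not say which part of the receptor gene was disrupted, or whether in all cells. Values below are therefore single measurements, no p-value is given, and genotype cannot be told apart from differences between the animals, RNA preparations or hybridizations. The number of arrays limits the precision. Because the samples are whole ovaries, fewer cells of a type and less RNA per cell cannot be told apart.

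Cholesterol is built from acetyl units through mevalonate, isoprenoid diphosphates, squalene and lanosterol. When the membrane of the endoplasmic reticulum runs low in sterol, SCAP carries the precursors of the transcription factors SREBP1 and SREBP2 to the Golgi, where they are cut and released to switch on the enzyme genes, whereas INSIG proteins hold SCAP back when sterol is plentiful. In the ovary cholesterol is also the substrate of progesterone synthesis, and rodent ovarian cells draw much of it from high-density lipoprotein through the receptor SR-BI.

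Across the array pair, the genes of cholesterol synthesis had mostly slightly lower signals in the knockout ovary, while the regulators and the genes of uptake, storage and export were split between lower and higher. Of the 32 genes, 22 had a lower signal in the knockout and 10 a higher one. Of all 11316 measured genes, 42.2% were lower and 57.7% higher. This background share depended on scaling. It was 51.5% lower after median scaling, 45.3% after quantile normalization and 49.0% after removal of the trend with signal. Under these, 23, 21 and 21 members were lower. Among the 17 measured synthesis enzymes 14 were lower, with a median log2 difference (knockout minus wild type) of -0.25, or 1.19-fold. The other 15 genes had 8 lower and 7 higher members and a median of -0.014. That median depended on the floor: it was -0.23 with the floor at the 70th percentile, where 2 of the dim genes, Lipe and Abcg1, drop out, so the medians of the enzymes and of the others were then nearly equal. The median of all measured genes was 0.056. The enzymes are brighter than most genes, so their own signal range is a closer background: of 5155 measured genes with a mean signal between 251 and 6115, 47.5% were lower and the median difference was 0.013.

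Differences were small. Only Lrp8, Mvk and Sqle were at least 1.5-fold lower in the knockout, 3 of 32 genes or 9.38%, where 4.75% of all measured genes passed this fold. With so few genes past it, the count is not read as different from the background. It was 6 after median scaling, with Mvd, Insig1 and Msmo1 added. Sqle was under 1.5-fold after quantile normalization (a log2 difference of -0.53), after removal of the trend with signal (-0.57) and with 32 added to each signal (-0.58), and Mvk with the mean over its probe sets (-0.37). No member was at least 1.5-fold higher (0 of 32), where 6.54% of measured genes were. In the signal range of the members 459 of 9075 measured genes were, and in that of the enzymes 134 of 5155. The count of 0 is likewise not read as different from the background. Further, 0 members were 2-fold apart in either direction, against 1.72% of measured genes at least 2-fold lower and 1.15% higher. Insig1 and Mvd, both 1.46-fold lower, and Msmo1, 1.44-fold lower, lay just under the 1.5-fold line. Among all genes measured, 538 passed 1.5-fold downwards and 740 upwards, and this split depended on scaling. Median scaling gave 665 lower and 552 higher, quantile normalization 613 and 566, and subtracting the trend with signal 676 and 514.

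Without replicates, the available measure of spread is how far several probe sets for a gene differ. Over 4771 genes with more than 1 probe set above the floor on both arrays, the standard deviation (SD) of the log2 difference within a gene was 0.25, or 1.19-fold. This reflects probes and transcript forms and holds no information on variation among mice. Of the 32 genes, 12 were lower by more than this SD and 5 higher. The background was 15.6% of measured genes for lower and 26.2% for higher. Among the 17 enzymes 8 were lower by more than the SD and 1 was higher, and the other 8 were within it. In the signal range of the enzymes, 15.2% of measured genes were lower and 17.0% higher by more than the SD. These counts are for the deposited scaling. Among the enzymes, Idi1 (-0.17) and Ebp (-0.24) came within this SD after quantile normalization. After median scaling Hmgcs1 (-0.31), Nsdhl (-0.30) and Pmvk (-0.26) were lower by more than it.

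**Figure D1:**
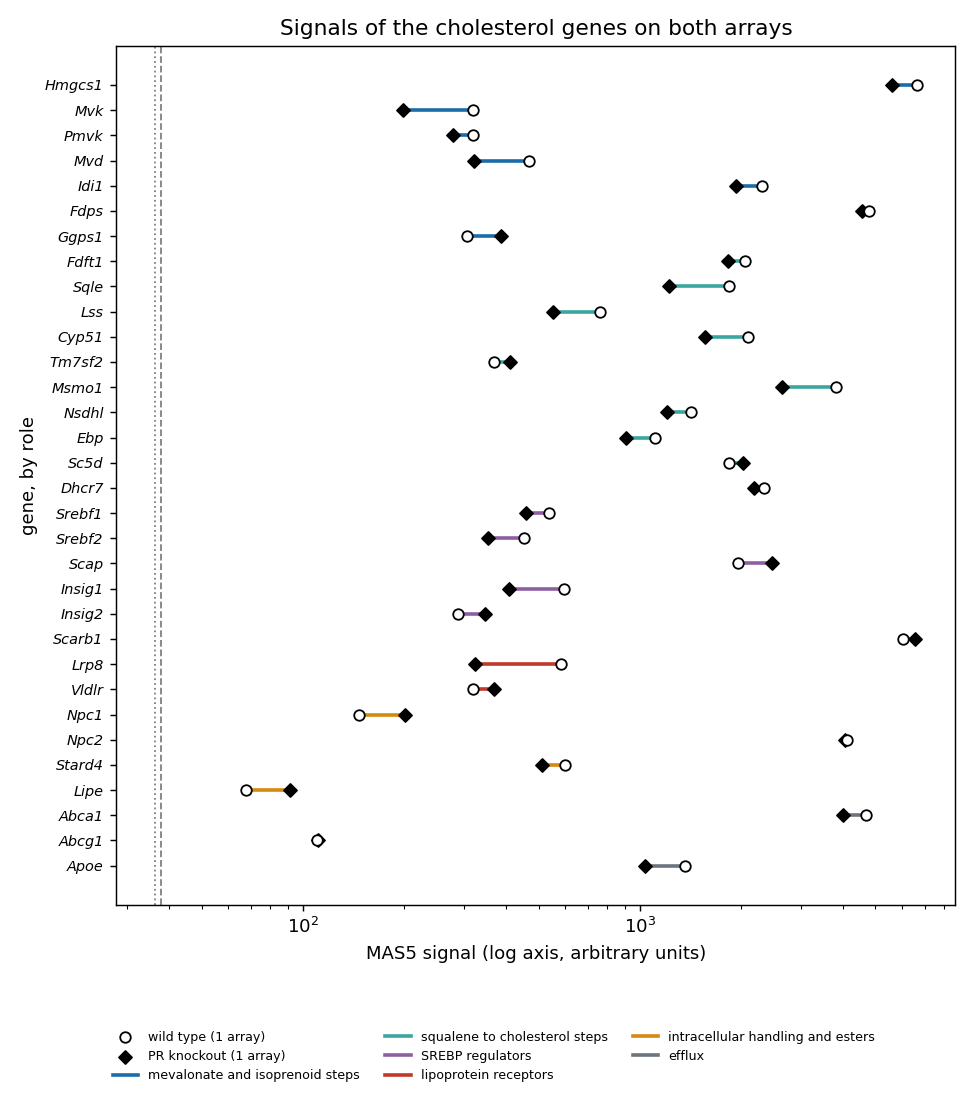
MAS5 signal (log axis, arbitrary units) of each of the 32 genes on the wild-type array (open circles) and the PR knockout array (filled diamonds), 1 array each, ordered and coloured by role, with vertical lines at the floors of 36.2 (dotted, wild type) and 37.95 (dashed, knockout). The diamond lies left of the circle in 22 genes, most of them in the upper block of synthesis enzymes, and all signals are above both floors.

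The mevalonate and isoprenoid steps had 6 of 7 measured enzymes lower in the knockout, with a median log2 difference of -0.25, and 5 of 7 after quantile normalization or removal of the trend with signal. Mvk, mevalonate kinase, gave 319.6 on the wild-type array and 198 on the knockout array, 1.62-fold lower. That value rests on 1 probe set, since the other measured probe set of Mvk differed by -0.04. Mvd, the decarboxylase that closes the mevalonate segment, had signals of 467 and 321, 1.46-fold lower, and its second probe set was also lower, by -0.35 on the log2 scale. These were the enzymes of the segment with the largest differences, and the evidence of the probe sets is more even for Mvd than for Mvk.

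Hmgcs1, which makes the HMG-CoA that feeds the pathway, was bright on both arrays, at 6658 and 5617. Its log2 difference of -0.25 rests on the brightest of 5 probe sets. The other 4 lay on the same side but between -0.09 and -0.04, and the mean over all 5 was -0.10. Idi1, the isomerase of the isoprenoid units, gave 2305 and 1923, 1.20-fold lower. By their brightest probe sets, both differences are about the size of the spread between probe sets of a gene.

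Pmvk, phosphomevalonate kinase, gave 319 on the wild-type array and 278 on the knockout array, 1.14-fold lower. Fdps, farnesyl diphosphate synthase, gave 4789 and 4573, a log2 difference of -0.07 that turned positive after quantile normalization and after removal of the trend with signal. The exception in this segment was Ggps1, whose product makes geranylgeranyl diphosphate for protein prenylation on a branch away from sterols. It had 307 on the wild-type array and 386 on the knockout array, 1.25-fold higher, although its 4 probe sets spanned log2 differences of -0.03 to 0.33.

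From squalene to cholesterol 8 of 10 enzymes had a lower signal in the knockout, with a median log2 difference of -0.26. Sqle, squalene epoxidase, a rate-controlling enzyme of this segment, gave 1839 on the wild-type array and 1216 on the knockout array, 1.51-fold lower from its only probe set. Msmo1, the methylsterol oxidase, gave 3819 and 2644, 1.44-fold lower, and its second probe set gave -0.48 on the log2 scale. Lss, which closes the ring of lanosterol, gave 759 and 554, 1.37-fold lower, with 3 probe sets between -0.66 and -0.45, the dimmest of them under the floor in the knockout. In Msmo1 and Lss every measured probe set was thus lower by more than the spread between probe sets.

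Cyp51, the demethylase that acts on lanosterol, showed the same pattern. Its signals were 2086 and 1561, 1.34-fold lower, and its 3 probe sets lay between -0.58 and -0.42. The dimmest of them, at 52.9 and 39.7, was close to the floor in the knockout. Ebp, a sterol isomerase, was 1.22-fold lower (1108 and 909) and the sterol dehydrogenase gene Nsdhl 1.17-fold lower (1417 and 1207). Fdft1, squalene synthase, was 1.13-fold lower (2049 and 1819.8), and Dhcr7, the reductase of the final step, 1.07-fold lower (2334 and 2176). The other measured probe set of Fdft1 differed by -0.04.

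The enzymes of this segment that were not lower were Sc5d and Tm7sf2. Sc5d, the lathosterol desaturase, gave 1842 on the wild-type array and 2016 on the knockout array, 1.09-fold higher. Its other probe sets were dimmer and lay further up, to 0.70 on the log2 scale. Tm7sf2, a sterol reductase, gave 369 and 411, 1.12-fold higher from its only probe set.

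**Figure D2:**
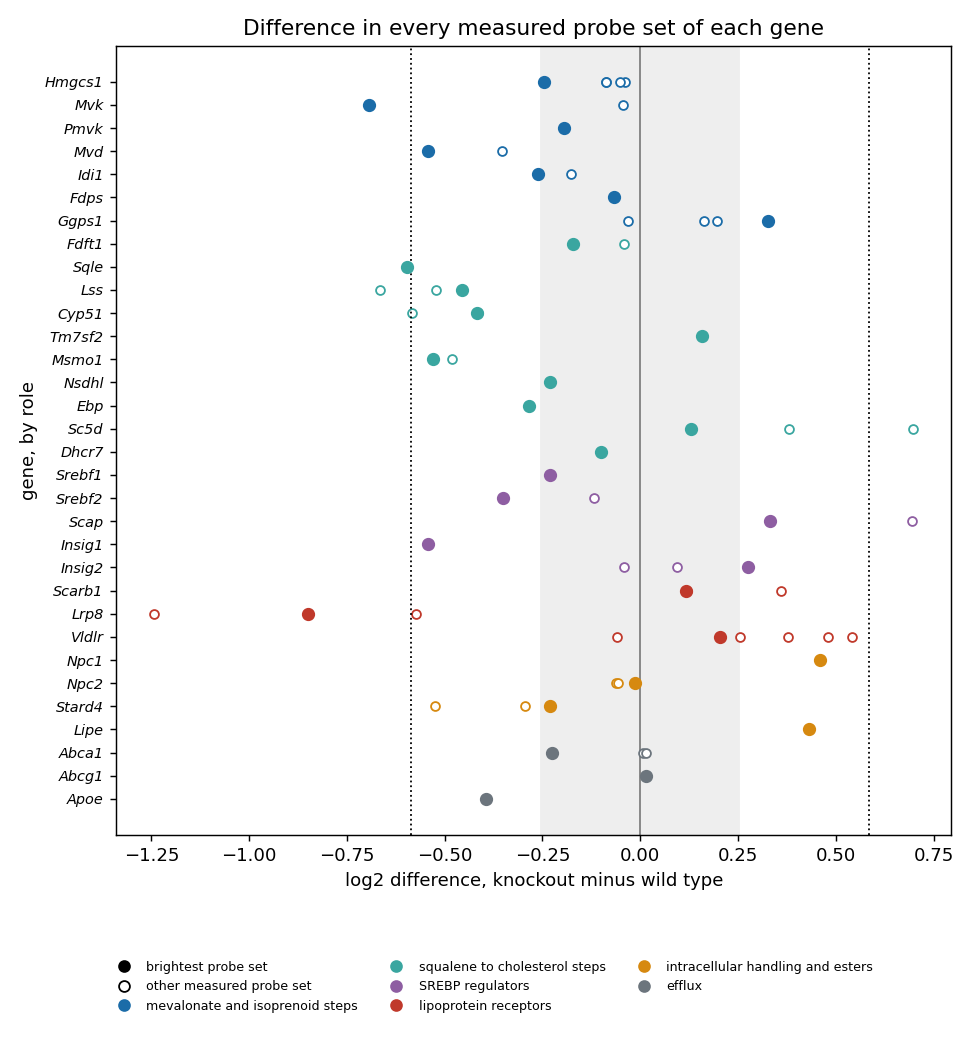
Log2 difference (knockout minus wild type) of every measured probe set of each gene; filled points are the brightest probe set and open points the others. The grey band is the within-gene SD of 0.25 on either side of 0 and the dotted lines mark 1.5-fold. Among genes with several measured probe sets, Lss, Cyp51, Msmo1, Mvd and Lrp8 lie left of the band in all, while Mvk has 1 probe set near 0.

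Counted by probe set, 28 of 35 measured probe sets of the enzymes were lower in the knockout, and 17 of 34 of the other genes. Over all single-symbol probe sets that reached the floor, 42.5% were lower. Of 19 members with several measured probe sets, 12 had all of them lower, 3 had all of them higher and the other 4 were mixed. Probe sets of 1 gene are read from the same RNA and are not replicates.

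The regulators of the pathway did not share a direction. Srebf2, which encodes the SREBP form that mainly drives sterol synthesis genes, gave 451 on the wild-type array and 354 on the knockout array, 1.28-fold lower, with a second probe set at -0.12 on the log2 scale. Srebf1, whose product mainly drives fatty acid synthesis genes, gave 537 and 458, 1.17-fold lower. Insig1, which is itself a target of SREBP, gave 595 and 409, 1.46-fold lower from its only probe set. Of the 5 regulators 3 were thus lower, and Insig1 was the farthest from 0.

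Scap and Insig2 went the other way. Scap gave 1955 on the wild-type array and 2461 on the knockout array, 1.26-fold higher, and its dimmer probe set gave 0.69 on the log2 scale. Insig2, a paralog of Insig1 that is not driven by SREBP in the same way, gave 287 and 348, 1.21-fold higher, with 3 probe sets from -0.04 to 0.28. Insig1 and Insig2 thus lay on opposite sides of equality by their brightest probe sets, at log2 differences of -0.54 and 0.28.

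Promoter sequences of the members were read from the RefSeq promoter table of mouse build GRCm38.p6, which gives 300 bases per start site, 250 before it and 50 after it. The table holds windows for 27 of the 34 genes. Stard4, Fdps, Npc1, Sqle, Scarb1, Fdft1 and Abcg1 have no entry. Both strands were searched for 4 motifs. They were CCAAT (the box bound by NF-Y, a partner of SREBP), TCACNCCAC (a form of the sterol regulatory element), CACGTG (an E-box, which reads the same on both strands and was counted once) and GGGCGG (a GC box bound by Sp1). The windows shown belong to Mvk, Mvd and Msmo1 as enzymes with larger differences and to Hmgcs1, the only member with a match to TCACNCCAC. Those of Insig1 and, for contrast, of Ggps1 and Scap, which were higher in the knockout, are shown as well. Each runs 5′ to 3′ on the strand of the gene, with matches to the first 3 motifs in capitals (ATTGG is CCAAT on the opposite strand).
Mvk promoter, chr5:114444019-114444318, plus strand: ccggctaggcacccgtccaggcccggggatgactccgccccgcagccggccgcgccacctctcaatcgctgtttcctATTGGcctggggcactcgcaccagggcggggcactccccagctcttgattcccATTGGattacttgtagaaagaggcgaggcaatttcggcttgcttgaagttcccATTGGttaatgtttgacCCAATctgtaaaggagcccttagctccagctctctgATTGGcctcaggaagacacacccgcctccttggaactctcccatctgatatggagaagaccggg
Mvd promoter, chr8:122443373-122443672, minus strand: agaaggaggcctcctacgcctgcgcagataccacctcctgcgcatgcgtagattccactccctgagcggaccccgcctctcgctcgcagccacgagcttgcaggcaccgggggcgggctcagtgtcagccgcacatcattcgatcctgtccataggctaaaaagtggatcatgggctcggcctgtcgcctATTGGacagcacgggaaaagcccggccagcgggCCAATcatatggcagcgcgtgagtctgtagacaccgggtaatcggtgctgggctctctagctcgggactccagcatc
Msmo1 promoter, chr8:64733529-64733828, minus strand: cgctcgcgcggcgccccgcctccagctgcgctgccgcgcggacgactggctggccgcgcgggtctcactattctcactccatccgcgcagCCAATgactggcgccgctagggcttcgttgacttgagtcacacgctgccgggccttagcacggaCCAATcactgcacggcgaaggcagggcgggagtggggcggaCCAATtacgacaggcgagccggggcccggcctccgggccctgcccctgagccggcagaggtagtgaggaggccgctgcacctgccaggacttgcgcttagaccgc
Hmgcs1 promoter, chr13:119690101-119690400, plus strand: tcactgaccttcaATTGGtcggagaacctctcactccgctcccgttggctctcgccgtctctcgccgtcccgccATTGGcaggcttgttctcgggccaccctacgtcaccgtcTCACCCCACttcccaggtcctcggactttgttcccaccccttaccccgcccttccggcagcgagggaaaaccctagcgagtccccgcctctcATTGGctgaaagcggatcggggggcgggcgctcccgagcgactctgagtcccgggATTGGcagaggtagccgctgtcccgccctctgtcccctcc
Insig1 promoter, chr5:28071162-28071461, plus strand: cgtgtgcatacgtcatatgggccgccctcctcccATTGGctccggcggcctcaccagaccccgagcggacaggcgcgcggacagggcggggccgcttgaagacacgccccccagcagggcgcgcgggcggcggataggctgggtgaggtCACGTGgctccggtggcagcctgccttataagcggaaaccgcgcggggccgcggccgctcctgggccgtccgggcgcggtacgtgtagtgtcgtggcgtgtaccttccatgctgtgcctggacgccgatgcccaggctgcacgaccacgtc
Ggps1 promoter, chr13:14063439-14063738, minus strand: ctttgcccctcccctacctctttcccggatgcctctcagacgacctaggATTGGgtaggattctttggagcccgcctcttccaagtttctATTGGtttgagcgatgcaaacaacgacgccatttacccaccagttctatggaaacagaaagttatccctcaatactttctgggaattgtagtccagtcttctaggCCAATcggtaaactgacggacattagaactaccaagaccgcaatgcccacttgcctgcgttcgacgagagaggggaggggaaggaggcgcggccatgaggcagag
Scap promoter, chr9:110333038-110333337, plus strand: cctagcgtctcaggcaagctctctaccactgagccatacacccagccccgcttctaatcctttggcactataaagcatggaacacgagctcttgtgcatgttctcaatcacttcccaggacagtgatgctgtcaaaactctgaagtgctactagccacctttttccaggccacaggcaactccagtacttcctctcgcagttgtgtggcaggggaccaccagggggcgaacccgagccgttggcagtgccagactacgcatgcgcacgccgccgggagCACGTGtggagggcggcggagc

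A CCAAT match was found in 14 of the 15 synthesis enzymes with a window, all but Acat2, against 37.4% of all 32851 windows and 43.2% of the 9180 measured genes with a window. At least 2 copies were found in 9 of the 15 enzymes, against 16.9% of those measured genes, and at least 3 in 5 of the 15, against 6.01%. Mvk held 5, the most among the members, beginning at 173, 120, 67, 50 and 14 bases before the start site, and 0.577% of measured genes had a window with as many. Hmgcs1 and Nsdhl held 4. Msmo1, Ggps1 and Insig2 held 3, the latter pair being higher in the knockout. Mvd held 2, while Lss and Cyp51, which were lower in every measured probe set, held 1 each. Of the other 12 genes with a window 7 had a match. Lrp8, the member with the largest difference, had no match to any of the 4 motifs.

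Whether the CCAAT box bears on the differences between the arrays was not tested. Over all measured genes with a window, the median log2 difference was 0.058 with a CCAAT match and 0.056 without. Ggps1, Tm7sf2 and Sc5d, the enzymes that were higher in the knockout, held the box as well. All 14 enzymes that were both measured and listed with a window had a match, so no such contrast exists among the enzymes.

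The sterol element TCACNCCAC was found in 1 of the 27 genes, Hmgcs1, beginning 137 bases before the start site. This form was found in 1.24% of all windows and in 1.42% of measured genes with a window. Other forms were not searched, so the lack of a match does not show that a gene has no sterol element. The E-box was found in 6 of the 27, among them Insig1 and Scap, against 11.9% of measured genes with a window. The GC box was found in 23 of the 27, against 70.2%. These matches describe letters in the windows and do not show binding.

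Among the lipoprotein receptors Lrp8 differed most. Lrp8 encodes ApoER2, a receptor for apolipoprotein E and reelin. Its brightest probe set gave 584 on the wild-type array and 324 on the knockout array, 1.80-fold lower. Its other probe sets gave 471 and 199 (a log2 difference of -1.24) and 76.9 and 51.6 (-0.57), so all 3 were lower by more than the spread between probe sets. Of all measured genes, 2.49% had a difference further down than Lrp8.

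Scarb1, which encodes SR-BI, did not share this direction. It was bright on both arrays, at 6053 on the wild-type array and 6565 on the knockout array, 1.08-fold higher, with 3 probe sets from 0.12 to 0.36. Vldlr, the receptor for very-low-density lipoprotein and a close relative of Lrp8, gave 320.3 and 369, 1.15-fold higher. Of its 6 measured probe sets 5 were higher, up to 0.54 on the log2 scale, and the dimmest was under the floor in the knockout. The related receptors Lrp8 and Vldlr thus lay on opposite sides of equality.

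Genes that move cholesterol inside the cell were not lower as a group. Stard4, a soluble sterol carrier, gave 600.0 on the wild-type array and 511 on the knockout array, 1.17-fold lower, and its 3 probe sets lay between -0.52 and -0.23 on the log2 scale. Npc1, the membrane protein that exports cholesterol from lysosomes, gave 146 and 201, 1.37-fold higher from its only probe set. Its soluble partner Npc2 was nearly level at 4109 and 4069, a log2 difference of -0.014 whose sign turned after quantile normalization and after removal of the trend with signal. Lipe, hormone-sensitive lipase, which releases cholesterol from stored esters, was the dimmest member at 67.8 and 91.5, 1.35-fold higher.

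Of the 3 efflux genes, Apoe was lower by more than the spread between probe sets, and the others were within it. Abca1, which loads cholesterol onto lipid-poor apolipoprotein, gave 4673 on the wild-type array and 3996 on the knockout array, a log2 difference of -0.23, while its dimmer probe sets gave 0.0062 and 0.016. Abcg1, which exports cholesterol to high-density lipoprotein, gave 109.9 and 111, nearly level, with a log2 difference of 0.014 whose sign turned under all 3 rescalings. Apoe, an apolipoprotein that carries cholesterol between cells and a ligand of Lrp8, gave 1359 and 1035, 1.31-fold lower from its only probe set. Macrophages make much Apoe and Abca1, and of 11 measured macrophage markers 7 were lower and 4 higher in the knockout once signals were floored. Cd163 counts as higher only through the higher knockout floor, since its signals were 36.5 and 29.7. Of all measured genes 42.2% were lower. The summed signal of the 11 markers was 1693 on the wild-type array and 1704 on the knockout array. This level sum holds differences in both directions, such as Csf1r at 277 and 380 and C1qa at 264 and 218. Marco, left out of the sum, was under the floor on both arrays. The part of macrophages in the values of Apoe and Abca1 was not tested.

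**Figure D3:**
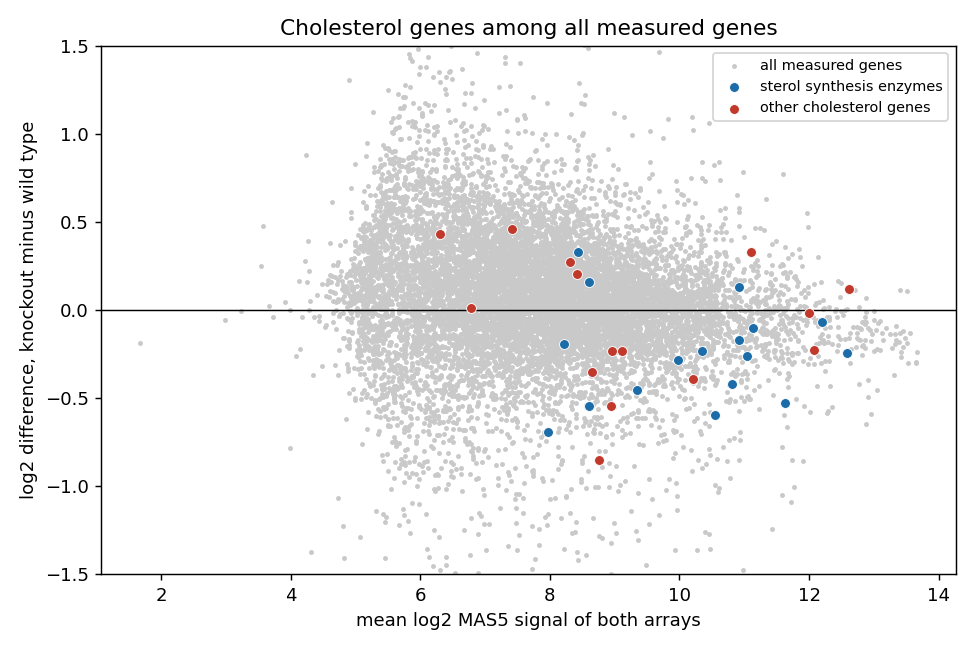
Log2 difference (knockout minus wild type) against the mean log2 signal of both arrays for all 11316 measured genes (grey), the synthesis enzymes (blue) and the other cholesterol genes (red); the vertical axis ends at 1.5 on either side, which leaves out 96 of the grey genes. The enzymes lie mostly below 0 and inside the grey cloud, and none of the 32 genes is beyond 1 on the log2 scale.

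Related gene lists had medians closer to 0 or above it. Signs of such small medians turn with scaling: under at least 1 of the 3 rescalings this was so for the fatty acid, liver X receptor, uptake and storage, and steroid lists below. Of 15 measured further genes of the sterol and SREBP pathway, 5 were lower, with a median log2 difference of 0.11. Cnbp, a nucleic acid-binding protein gene, was 1.32-fold lower (3033 and 2300.0), but its second probe set gave 0.32. Mbtps1, the protease that makes the first cut in SREBP, gave 775 and 985, 1.27-fold higher in its brightest probe set and higher in both. Of the NF-Y subunit genes, Nfyb was 1.24-fold lower (its other probe set gave 0.30) and Nfya 1.21-fold higher. The remaining subunit gene, Nfyc, named after its values were seen, was 1.13-fold higher.

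Of 16 measured genes in a list of fatty acid and lipid genes, most of them SREBP targets, 7 were lower, with a median of 0.013. Stard5, which encodes a sterol-binding relative of Stard4 and is not an established SREBP target, was the only gene of this list past 1.5-fold. It gave 287 on the wild-type array and 112 on the knockout array, 2.57-fold lower, and its 3 probe sets lay between -1.43 and -1.17 on the log2 scale. Among the SREBP targets of the list Mid1ip1, a regulator of fatty acid synthesis, was 1.49-fold higher (1369 and 2046), the fatty acid elongase gene Elovl5 1.39-fold higher (3433 and 4769) and the desaturase gene Scd1 1.27-fold lower (1332 and 1049).

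Targets of the liver X receptors, which sense excess sterol, had 4 of 9 measured members lower and a median of 0.014, and this list holds Abca1, Abcg1, Apoe and Srebf1 as well. Mylip, which encodes a ubiquitin ligase for lipoprotein receptors, was 1.36-fold higher (144 and 196), Smpdl3a 1.35-fold higher and Lpcat3, a phospholipid-remodelling enzyme gene, 1.21-fold lower. Other uptake and storage genes had 7 of 16 lower and a median of 0.050, and Stard5 is also in this list. The lysosomal lipase gene Lipa was 1.33-fold higher (256 and 341, with 3 probe sets from 0.38 to 0.44), Nceh1, an ester hydrolase gene, 1.29-fold higher and the endothelial lipase gene Lipg 1.24-fold higher.

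The next users of cholesterol, the genes of steroid synthesis, had 6 of 10 measured members lower and a median of -0.063. Akr1c18, whose enzyme inactivates progesterone, was 7.01-fold lower at 4447 and 634. Star, which delivers cholesterol to the inner mitochondrial membrane, gave 6317 and 4307, 1.47-fold lower. Cyp17a1, an androgen-synthesis enzyme gene, was 1.38-fold lower, and Hsd17b1, which makes estradiol, 1.54-fold higher.

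**Figure D4:**
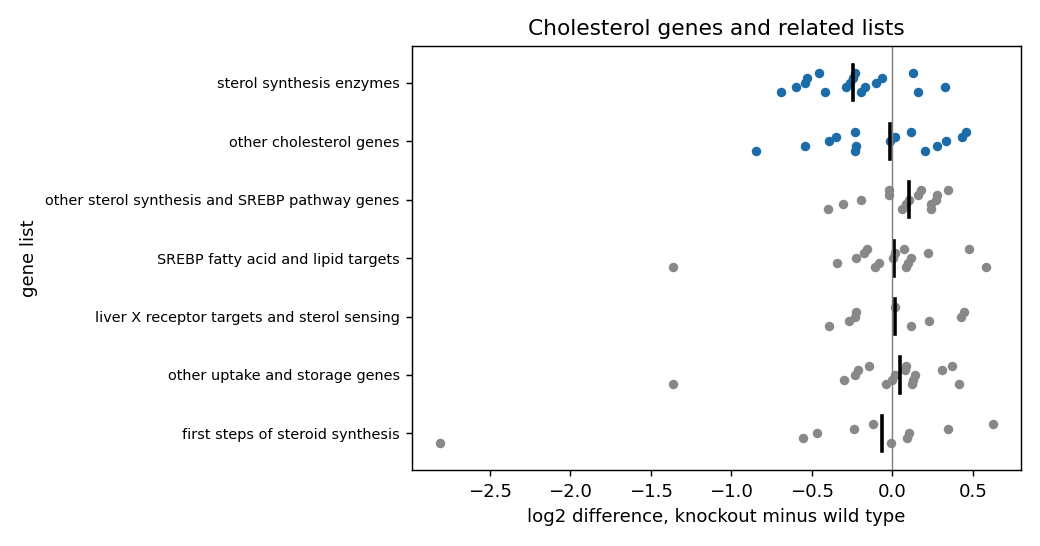
Log2 difference (knockout minus wild type) of each measured gene in the synthesis enzymes and the other cholesterol genes (blue) and in 5 related lists (grey), with a vertical bar at each median. The median of the enzymes is -0.25, those of the related lists run from -0.063 to 0.11, and the far-left points are Stard5, in both lists that hold it, and Akr1c18.

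Marker genes of the cells that make or use cholesterol were counted beside all measured genes, of which 42.2% were lower and 57.7% higher. Of 5 luteal markers measured, 3 were lower in the knockout, and their summed signal was 13095 on the wild-type array and 7197 on the knockout array, with Akr1c18 and Star in the list. Nearly all of this difference in the sum lay in these genes: without them the other 3 markers summed to 2330.3 and 2256. That near-equal sum holds opposite differences. Parm1 gave 782 on the wild-type array and 313 on the knockout array, while Oxtr gave 368 and 577 and Ptgfr 1181 and 1365. Of 9 granulosa markers 7 were higher and 2 lower, with summed signals of 14607 and 16438. The largest part of these sums was Inha, at 8399 and 8073. At least 1.5-fold higher were 4 of the 9, where 6.54% of all measured genes were. Of 6 theca and interstitial markers 4 were higher, near the share of all measured genes, with nearly level sums of 26129 and 26214. Ptch1 was farthest up, at a log2 difference of 0.97, and Cyp17a1 farthest down, at -0.47. The part of these differences in the cholesterol genes was not tested. Adipoq, Cidec, Lep, Pck1 and Retn, which mark fat cells, were under the floor on both arrays, as were the liver genes Alb, Apoa2 and Ttr.

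The targeted gene, Pgr, was close to or under the floor in all 3 of its probe sets on both arrays, the brightest at 36.5 on the wild-type array and 42.8 on the knockout array, so it gives no check of the genotype labels. Ovarian markers were present, with 7 of 7 oocyte and 9 of 9 granulosa genes found on the array reaching the floor. Over the single-symbol probe sets that passed the floor on each array, Pearson's r between the arrays was 0.97 for log2 signals, and these points share both RNA samples.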

How the data were processed

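RNA was labelled from 100 ng per sample with the Affymetrix 3′ Express kit, per the labels' protocols. The deposited values are 1 linear intensity per probe set and array, made by the authors with MAS5 and Affymetrix Expression Console version 1, per the submitters' processing notes. The mean intensity after trimming 2% at each end was 150.001 on both arrays, so each was scaled to a common target. MAS5 subtracts mismatch probes, which makes low signals noisy, and removes no trend with signal.

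Signals were taken to log2 with Python 3.11.15 and pandas 2.3.3. Of 45101 probe sets, 64 controls were left out. The platform annotation gave 34945 of the others 1 gene symbol, 932 several and 9160 none, and only the first kind was used. For a gene with several probe sets, the brightest by mean log2 signal was taken. The floor was the median of each array, 36.2 on the wild-type array and 37.95 on the knockout array. Signals under it were set to it, and 11316 genes reached it on at least 1 array. Differences are knockout minus wild type, and past 1.5-fold served as the call, with no test because there is 1 array per genotype. Every measured member is named, along with up to 4 genes with the largest differences of each related list. The members, lists and markers were chosen with earlier results of these arrays known. The alternatives changed the floor, the scaling (3 ways), the probe set (2 ways), the offset and the fold. The calculation was tested on simulated data with planted differences and no noise. That test checks the code and says nothing on the precision of the values. The deposited values name no genome build, and coordinates belong to the RefSeq promoter table.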

Additional observations from a re-analysis of the deposited data

How the results depend on the processing

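The count of 22 lower members ran from 21 to 23 over the 8 alternatives at the level of signals, and 0 members were at least 1.5-fold higher under each of them. The count at least 1.5-fold lower was 6 after median scaling, 0 at a 2-fold threshold and between 2 and 4 under the other alternatives. The enzyme median stayed between -0.31 and -0.19, while under the 3 rescalings the median of all measured genes lay between -0.010 and 0.033. The median of the other members was -0.23 with the 70th percentile floor, where Lipe and Abcg1 were not measured. Of 254 member values under alternatives, 252 moved by less than 0.25. The others were Mvk (-0.37) and Sc5d (0.40) as means over probe sets. The signs of 29 members held throughout, and those of Fdps, Npc2 and Abcg1 turned. Leaving out Lrp8, an alternative chosen after seeing the data, gave a median of -0.23 for all members. No paired analysis was possible because each genotype has 1 array, and for the same reason no replicate could be left out.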

Other observations

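Marker lists of further cell types were compared as well, where 57.7% of all measured genes were higher. All 7 oocyte markers had a higher signal in the knockout (6 of 7 after median scaling or removal of the trend with signal). Their median log2 difference was 0.15, and their summed signals were 2251 on the wild-type array and 2509 on the knockout array. Of these markers 6 lay within the SD between probe sets of a gene, and only Nlrp5, at 0.56, was beyond it. Of 6 endothelial markers 4 were higher, a count near the share of all measured genes. Their median was 0.30 and their sums 1042 and 1263, and Tie1 was farthest at 0.95. Among genes found for the other lists, Fabp4, which fat cells share with endothelium and macrophages, gave 335 on the wild-type array and 70.9 on the knockout array, Apoa1, an apolipoprotein gene of liver, 504.6 and 210.1, and the erythroid gene Alas2 87.8 and 83.4. The remaining members of the adipocyte, hepatocyte and erythrocyte lists that were found on the array were under the floor on both arrays.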
